A study of Homo sapiens with 4 samples.

Results

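The cytosolic ribosome is built from ribosomal RNAs and a fixed set of ribosomal proteins, each encoded by a gene of its own. RPL and RPLP genes encode proteins of the large subunit, which joins amino acids, and RPS genes and RPSA encode proteins of the small subunit, which reads the mRNA. Most of these mRNAs begin with a C followed by an unbroken run of C and T bases, the terminal oligopyrimidine (TOP) start, through which their translation is controlled together by mTOR and LARP1. Many of the genes also have processed pseudogenes, intronless copies of the mRNA elsewhere in the genome, so that a short read can match several places. Expression of 77 cytosolic ribosomal protein genes was examined here, chosen by symbol alone from 23228 gene symbols, with 46 genes of the large subunit and 31 of the small subunit. Of these, 75 had enough reads to enter the test among 14473 genes. RPL21 was not tested, with 0, 7, 3 and 3 reads in the 4 samples. Levels are given as counts per 1000000 reads on genes (CPM).

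RNA came from SKOV3-ALDH+ OCSCs. SKOV3 is an established human ovarian cancer line, and ALDH+ ovarian cancer stem cells (OCSCs) are the cells sorted for aldehyde dehydrogenase activity with the ALDEFLUOR kit and grown as spheroids in serum-free medium with EGF, bFGF, hydrocortisone and insulin. The Vehicle group had 2 samples, and the LY500307 group had 2 samples given the ERβ agonist LY500307 at 5 µM, both for 24 h. Nothing in the labels says whether replicates were separate cultures, so that p-values may measure technical spread, and all 4 samples come from 1 line.

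Reads counted on genes numbered 28841701 to 34943882 per sample. Against the labelled cell type, EPCAM (6213 to 8327 reads), KRT18 (668 to 1030) and ERBB2 (1452 to 2060) were present, ALDH1A1 had 134 to 185 reads and KRT8 9 to 33, whereas PAX8 had none and KRT7, CDH1, WT1 and MUC16 had at most 6. Of markers of other cell types, collagen genes COL1A1 (5404 to 7703 reads) and COL3A1 (12513 to 16716), LUM (491 to 544), DCN (263 to 283) and CD68 (372 to 620) were counted. PTPRC, CD3E, PECAM1 and VWF had at most 11 reads. The summed reads of these 9 markers were 19845 and 19090 in the Vehicle samples and 24661 and 25360 in the LY500307 samples, and their part in the results was not tested. The LY500307 samples differed from each other more than the Vehicle samples did, with a chi-square per degree of freedom of 36.5 against 4.79 over genes.

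The sequences below show the start shared by most of these genes and, by contrast, RPL11 and RPS29, whose annotated starts lack it. RPL11 has a C followed by at least 4 C or T bases within 5 bases of its annotated start, and RPS29 does not. Each runs from 10 bases before to 20 bases from the annotated start on, as RefSeq gives it on GRCh38.p14, and capitals mark the unbroken run of C and T at the start. RPLP2, RPL29 and RPS21 were chosen from members higher with LY500307. RPSA was chosen as higher in LY500307 replicate 2 alone, and RPS24 and RPS25 as lower in that replicate.
RPLP2, chr11:809957-809986 (+): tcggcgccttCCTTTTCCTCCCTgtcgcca
RPL29, chr3:51995876-51995905 (-): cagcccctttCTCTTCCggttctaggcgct
RPS21, chr20:62387093-62387122 (+): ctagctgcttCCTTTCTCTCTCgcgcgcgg
RPSA, chr3:39406710-39406739 (+): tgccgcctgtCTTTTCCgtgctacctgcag
RPS24, chr10:78033853-78033882 (+): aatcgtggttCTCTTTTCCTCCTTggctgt
RPS25, chr11:119018324-119018353 (-): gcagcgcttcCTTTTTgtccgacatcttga
RPL11, chr1:23691769-23691798 (+): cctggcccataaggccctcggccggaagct
RPS29, chr14:49598691-49598720 (-): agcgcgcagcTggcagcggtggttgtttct

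RefSeq promoter windows, 250 bases before to 50 bases after the annotated start, were matched for 62 of the 77 genes. The annotated start was a C in 46 of them, and the pyrimidine run had a median length of 7 bases and a range of 0 to 19, the longest being that of RPL39. A C at the start followed by at least 4 C or T bases was found in 42 windows (67.7%), against 4.04% of all 27305 windows. With the start allowed to lie within 5 bases, 50 windows (80.6%) had it, against 21.1%. Both subunits shared it, with 25 of 38 large-subunit and 17 of 24 small-subunit windows.

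Other motifs were searched on both strands. GGGCGG, an SP1-type box, was in 54.8% of member windows and 44.6% of all windows, and CCGGAA, an ETS-type box, was in 53.2% and 17.6%. AAGATGG, a YY1-type box, was in 12.9% of member windows against 6.06%, and the Kaiso-type palindrome, which ZBTB33 binds, was in 6.45% against 0.469%. The full palindromic estrogen response element is the classical binding sequence of ERα and ERβ. It was in 0 of the 62 windows and in 0.0659% of all windows, too rare for the 0 to set these genes apart. Its shorter part AGGTCA, which overlaps it, was in 16.1% against 13.9%. A match in letters describes the sequence and does not show that a factor binds there.

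**Figure D1:**
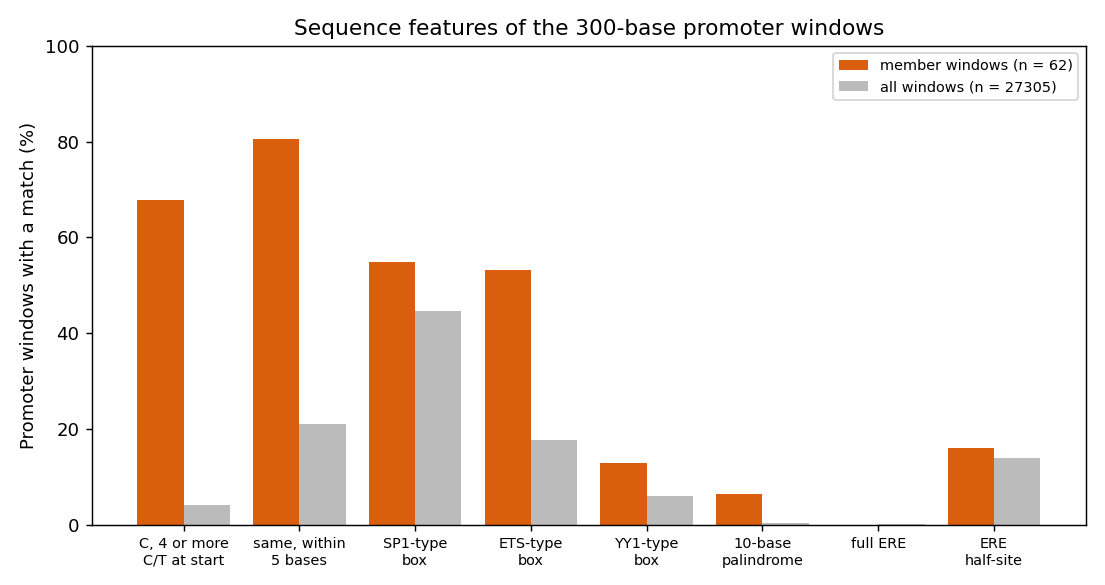
Share of 300-base promoter windows with each sequence feature (%), for the 62 members with a window (orange) and all 27305 windows (grey); ERE is the estrogen response element. The pyrimidine start was in 67.7% of member windows and 4.04% of all windows, whereas GGGCGG and AGGTCA were nearly as common in both.

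Ribosomal protein genes took a larger share of the reads in both LY500307 samples, and most of that came from replicate 2. They held 1.93% and 1.95% of gene counts in the Vehicle samples (Wilson 95% intervals 1.92 to 1.93 and 1.94 to 1.95, counting error only), 2.08% in LY500307 replicate 1 (2.08 to 2.09) and 2.31% in replicate 2 (2.31 to 2.32). Group means were 1.94 ± 0.0137% and 2.20 ± 0.165% (SD, n = 2 each), a difference of 0.26 percentage points with a two-sided exact permutation p of 0.333, the smallest p that 2 samples against 2 allow. Against both Vehicle samples, the difference was 0.144 points without LY500307 replicate 2 and 0.377 without LY500307 replicate 1. In these bulk samples, more cells of a kind and more RNA per cell cannot be told apart.

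The balance between the subunits differed by less than the spread between samples. The ratio of large-subunit to small-subunit reads was 1.574 and 1.559 in the Vehicle samples and 1.571 and 1.596 in the LY500307 samples, so that the groups overlapped. The difference in means was 0.017 (exact permutation p = 0.667, two-sided). Without RPS24, the gene with the most reads, it became -0.066. The ratios were then 1.868 and 1.866 in the Vehicle samples and 1.859 and 1.744 in the LY500307 samples, without overlap. On the mean log2 CPM scale, the difference between subunits was -0.0192 (exact permutation p = 1).

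In the test across all genes, 26 of the 75 genes had higher levels with LY500307 at an unadjusted p below 0.05, 34.7% of them, and 0 had lower levels. Over all 14473 genes tested, 6.09% were higher and 5.5% lower at that threshold. The 26 were 15 genes of the large subunit and 11 of the small subunit. The DEG criteria of the study, an unadjusted p below 0.05 and a log2 fold change above 0.5 in size, were met upward by 13 genes, against 2.76% of all genes, and downward by 0, against 1.86%. Of these, 6 belong to the large subunit, RPL4, RPL13, RPL29, RPL34 and RPLP2 among them, and 7 to the small subunit, among them RPS15A, RPS19, RPS21, RPS23, RPS27A and RPSA. With DESeq2 the criteria were met by 9 of the 13, without RPL13, RPS19, RPS27A and RPSA. After Benjamini-Hochberg adjustment over all genes, none passed with edgeR's quasi-likelihood test (smallest adjusted p 0.422) or with DESeq2 (smallest adjusted p among these genes 0.0710); over the alternatives with all 4 samples, the smallest ran from 0.00212 with a crossed block, chosen after seeing the data, to 0.511 with a GC correction. The other 13 genes past the unadjusted threshold were RPL7A, RPL9, RPL12, RPL13A, RPL18, RPL19, RPL24, RPL27, RPL35A, RPS14, RPS15, RPS16 and RPS18. Dropping 1 sample left a group with a single sample, so only effect sizes are given here. The family's median log2 fold change was 0.278 or 0.270 on dropping Vehicle replicate 1 or 2. It was 0.438 on dropping the first LY500307 sample and 0.103 on dropping the second. Medians over all genes in these fits ran from -0.0045 to 0.0048. With the replicate number as a block 2 genes were lower, and with a correction for gene length 9 genes were higher and 7 met the DEG criteria, 1 of them downward.

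The median log2 fold change of the 75 genes was 0.27, with a middle range from 0.04 to 0.44, while the median over all genes tested was 0.00. With the correction for gene length the median of the family was 0.135, and with the replicate block and length correction together 0.127. It was positive in 57 genes. The large subunit had a median of 0.27 over 45 genes and the small subunit a median of 0.32 over 30 genes. Both LY500307 samples lay above both Vehicle samples in 40 genes, against 24.2% of all genes, and below them in 6 (RPL7, RPL10A, RPL23, RPL36A, RPS10 and RPS25), against 24.4%, whereas the groups overlapped in 29.

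**Figure D2:**
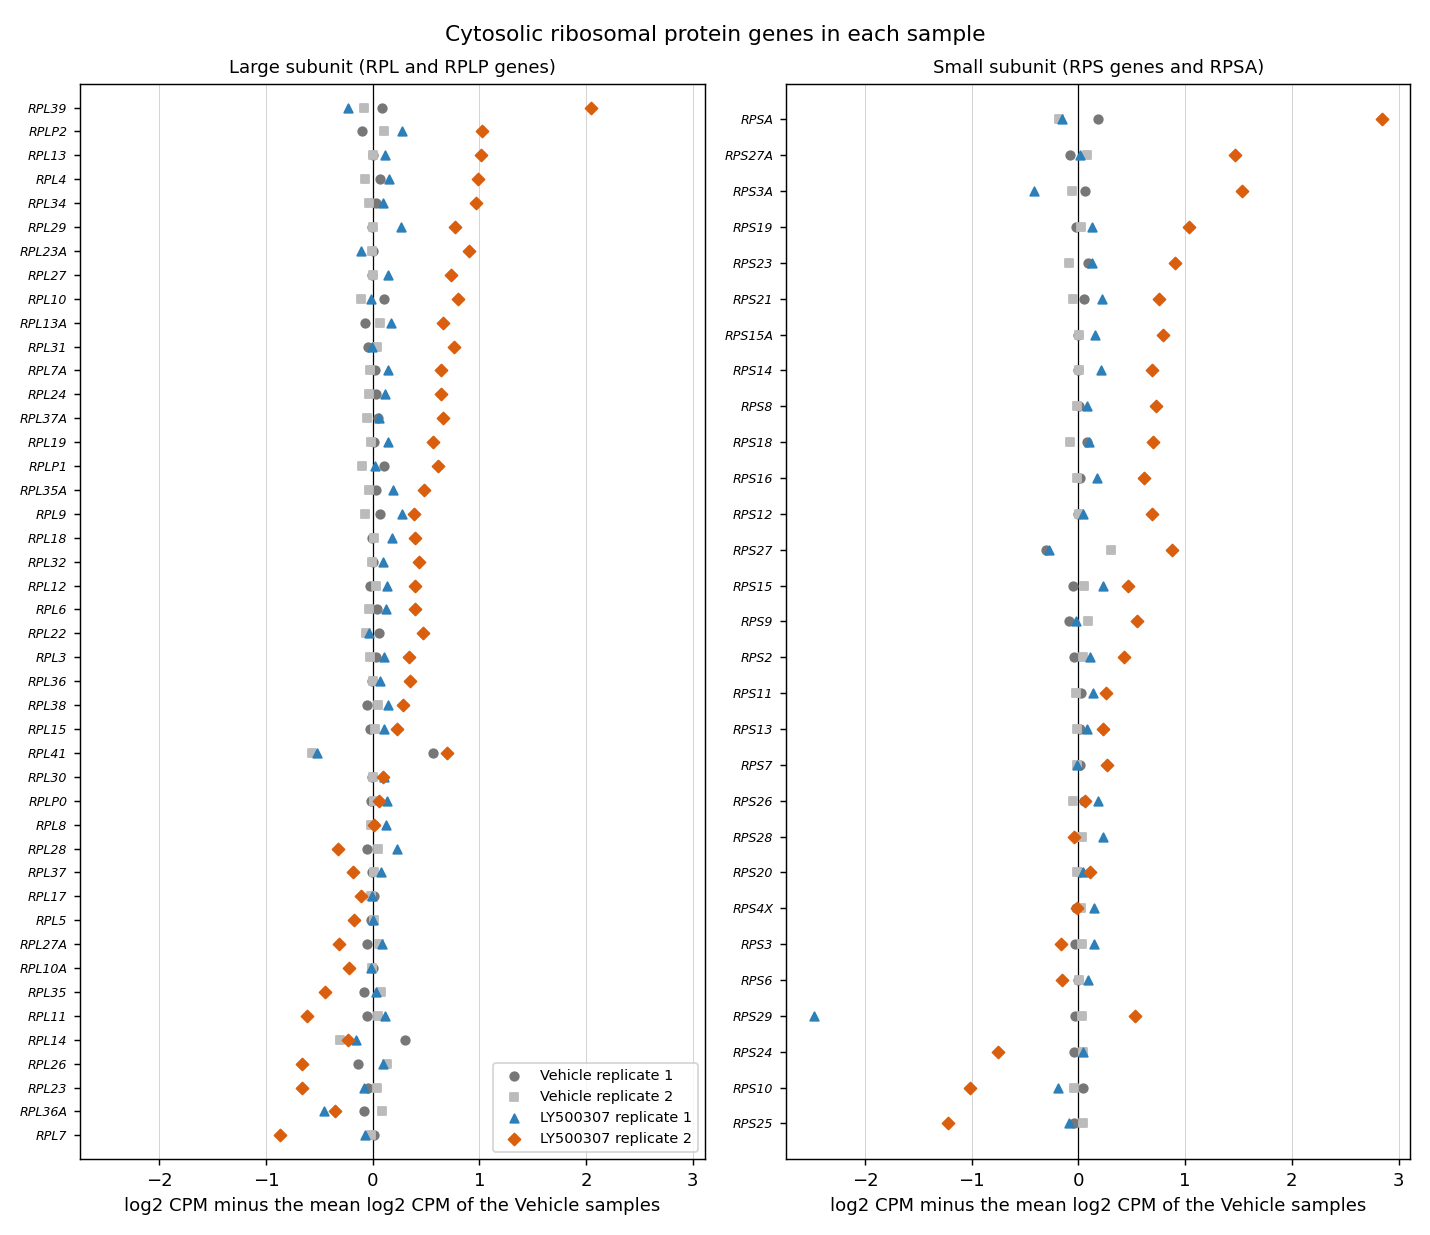
Level of 73 of the tested genes in each sample, as log2 CPM minus the mean log2 CPM of the Vehicle samples, ordered by log2 fold change within the large (left) and small (right) subunit; each point is 1 sample. LY500307 replicate 2 (orange) lies to the right of 0 for most genes and farthest to the left for RPS25, RPS10, RPL7 and RPS24, while replicate 1 (blue) stays near 0 except for RPS29 and a few others.

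The LY500307 samples were then set apart, each against both Vehicle samples, as effect sizes only. The comparisons share the Vehicle samples. A test would assume that the lone sample varies like the Vehicle pair. The LY500307 pair varied more (chi-square per degree of freedom 36.5 against 4.79). In LY500307 replicate 1 the median log2 fold change was 0.10 and 55 genes were positive, so that most genes were slightly higher. No gene met the DEG criteria upward (0.995% of all genes did) and 2, RPS29 and RPL41, met them downward (1.37% of all genes). In LY500307 replicate 2 the median was 0.44 and 55 genes were positive. There, 33 genes met the criteria upward (7.16% of all genes) and 5 downward (6.17%), namely RPL11, RPL23, RPL26, RPS24 and RPS25. The 13 genes that met the DEG criteria over both samples had log2 fold changes of -0.16 to 0.52 in replicate 1 and 0.75 to 2.83 in replicate 2. They were picked by a fit that includes both samples, so these ranges depend in part on that choice.

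Between the LY500307 samples, 38 of the 75 genes differed by more than 0.5 on the log2 CPM scale, 30 of them higher in replicate 2 (9.24% of all genes were) and 8 lower (7.47% of all genes). Between the Vehicle samples 3 genes did (RPL14, RPL41 and RPS27), 1 upward and 2 downward, against 5.02% and 5.56% of all genes. Among the 2794 genes with a mean of at least 100 CPM, 54 were higher and 179 lower in LY500307 replicate 2 than in replicate 1. Between the Vehicle samples, 0 of these 2794 were higher and 1 was lower. The SD over genes of the replicate difference was 0.76 for the LY500307 pair and 0.19 for the Vehicle pair in ribosomal protein genes. Over all genes tested it was 0.41 and 0.39, and over those with a mean of at least 100 CPM, a minimum not set for the ribosomal protein genes, it was 0.27 and 0.08. LY500307 replicate 2 also had the fewest reads outside genes, 17.3% of tallied reads against 19.0% in replicate 1 and 19.9% and 20.5% in the Vehicle samples, and the lowest share of alignments to more than 1 place, 32.3% against 33.3%, 32.8% and 33.4%. The part of these in the results was not tested.

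**Figure D3:**
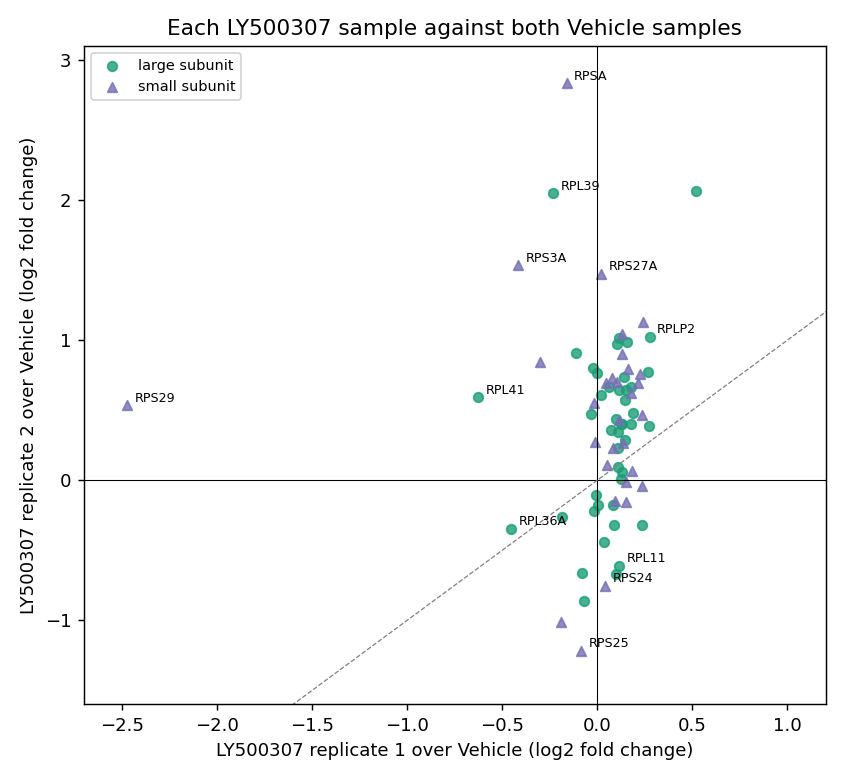
Log2 fold change of each gene in LY500307 replicate 1 (x axis) and replicate 2 (y axis), each against the same 2 Vehicle samples; the dashed line marks equal values. Most genes sit within 0.3 of 0 on the x axis but spread from -1.22 (RPS25) to 2.83 (RPSA) on the y axis.

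Among proteins of the stalk, the flexible arm of the large subunit that recruits the elongation factors, RPLP2 differed most. RPLP2 (chr11:809967-812876, GRCh37) had 143 and 165 CPM in the Vehicle samples and 186 and 312 CPM in the LY500307 samples. Its groups did not overlap, and its log2 fold change was 0.70 (standard error of the log2 value, SE, 0.22; adjusted p = 0.422). RPLP1, its partner in the stalk, had 234 and 203 CPM with vehicle and 221 and 333 CPM with LY500307 (log2 fold change 0.34, adjusted p = 0.462 by edgeR), with overlapping groups. RPLP0, which anchors the stalk to the ribosome, had 416 and 423 CPM against 459 and 436 CPM (0.09, adjusted p = 0.695 by edgeR). RPLP2 alone of the 3 met the DEG criteria; the difference between the genes was not tested.

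RPL5 and RPL11 form, with 5S ribosomal RNA, the particle that binds MDM2 when ribosome assembly is disturbed. RPL5 had 543 and 555 CPM in the Vehicle samples and 550.1 and 485 CPM in the LY500307 samples (log2 fold change -0.08, SE 0.11). RPL11 (chr1:24018296-24023325) had 843, 904 and 944 CPM in both Vehicle samples and LY500307 replicate 1, but 571 CPM in LY500307 replicate 2. Its log2 fold change was 0.11 in replicate 1 and -0.61 in replicate 2, and -0.21 over both (SE 0.21, adjusted p = 0.677 by edgeR). RPL23, another MDM2-binding protein of the large subunit, had 573 and 608 CPM with vehicle and 558 and 373 CPM with LY500307 (-0.34, adjusted p = 0.452), lower in replicate 2 as well. RPL26, which sits at the exit of the peptide tunnel, had 490.3 and 590.3 CPM against 577 and 339.7 CPM and was not named by the rule but chosen after its values were seen.

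RPL29, a large-subunit protein, had the smallest p of the family. RPL29 (chr3:52027538-52029911) had 152 and 154 CPM in the Vehicle samples and 184 and 261 CPM in the LY500307 samples, with a log2 fold change of 0.54 (SE 0.16, adjusted p = 0.422). RPL9 was one of the few genes in which both LY500307 samples were close, with 79.6 and 72.5 CPM against 91.8 and 99.2 CPM (0.33, SE 0.11, adjusted p = 0.422). RPL13A, known for a role outside the ribosome in interferon-γ-controlled translation, had 146 and 162 CPM against 174 and 243 CPM (0.44, adjusted p = 0.422). In these 3 genes the LY500307 samples lay above both Vehicle samples. The other large-subunit genes that met the DEG criteria, RPL4, RPL13 and RPL34, were much closer to the Vehicle samples in replicate 1 than in replicate 2, with log2 fold changes of 0.16, 0.11 and 0.10 in replicate 1 and 0.99, 1.02 and 0.97 in replicate 2.

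Among further large-subunit genes, RPL39 and RPL41 were counted at low levels and differed widely between samples. RPL39, encoding a very short protein near the peptide tunnel, had 7.31 and 6.51 CPM with vehicle against 5.88 and 28.5 CPM (log2 fold change 1.31, adjusted p = 0.431 by edgeR), with replicate 1 below and replicate 2 above the Vehicle samples. RPL22, which also binds RNAs outside the ribosome, had 75.4 and 69.2 CPM against 70.6 and 100.1 CPM (0.24, adjusted p = 0.539). In both genes the groups overlapped. RPL36A had 8.98 and 10.1 CPM against 6.94 and 7.46 CPM (-0.40, adjusted p = 0.431 by edgeR), with both LY500307 samples lower. RPL41, the shortest coding sequence of the family at 78 bases, had 9.78 and 4.47 CPM in the Vehicle samples, as far apart as 4.61 and 10.7 CPM in the LY500307 samples.

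In the small subunit, RPS27A and RPSA had the highest log2 fold changes. RPS27A (chr2:55459824-55462989), which is made as a fusion with ubiquitin, had 58.3 and 65.3 CPM in the Vehicle samples, 62.5 CPM in LY500307 replicate 1 and 171 CPM in replicate 2 (log2 fold change 0.92, SE 0.38, adjusted p = 0.428). RPS3A had 9.74 and 8.97 CPM against 7.002 and 27.04 CPM (0.86, adjusted p = 0.491 by edgeR). In both genes replicate 1 stayed within or below the Vehicle samples, and replicate 2 alone was high. RPS19, mutated in Diamond-Blackfan anaemia, had 289 and 299.8 CPM against 322 and 606 CPM (0.65, SE 0.25, adjusted p = 0.422). For RPS19 the groups did not overlap, though replicate 1 was much nearer to the Vehicle samples than replicate 2.

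Of the remaining small-subunit genes with small p values, RPS21 had 129.6 and 121 CPM with vehicle and 146 and 211 CPM with LY500307 (log2 fold change 0.51, adjusted p = 0.422). RPS14, a gene of the 5q region lost in a myelodysplastic syndrome, had 243 and 244 CPM against 282 and 392 CPM (0.47, adjusted p = 0.422). RPS16 had 234 and 229 CPM against 262 and 356 CPM (0.41, adjusted p = 0.422), and RPS15 had 89.2 and 96.0 CPM against 109 and 127 CPM (0.35, adjusted p = 0.422). LY500307 replicate 1 exceeded both Vehicle samples in all 4 genes, and replicate 2 was higher still. RPS15A and RPS23 met the DEG criteria too, with log2 fold changes of 0.16 and 0.13 in replicate 1 and 0.79 and 0.90 in replicate 2.

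Other small-subunit genes were lower in LY500307 replicate 2. RPS25 (chr11:118886427-118889053), used by several viral internal ribosome entry sites, had 348 and 367 CPM in the Vehicle samples, 336 CPM in LY500307 replicate 1 and 153 CPM in replicate 2. Its log2 fold change was -0.55 (SE 0.30, adjusted p = 0.471 by edgeR), -0.09 in replicate 1 and -1.22 in replicate 2. RPS24 (chr10:79793621-79800455), a Diamond-Blackfan anaemia gene, had 1196, 1270.1 and 1266 CPM in both Vehicle samples and LY500307 replicate 1 and 729.8 CPM in replicate 2 (-0.31, adjusted p = 0.565 by edgeR). RPS25 and RPS24 carry the pyrimidine start, as RPS21 does, but in LY500307 replicate 2 they lay below the Vehicle samples and RPS21 above them.

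RPS29, a small zinc-binding protein, was the gene in which the LY500307 samples differed most. It had 68.0 and 71.5 CPM in the Vehicle samples, 12.5 CPM in LY500307 replicate 1 and 101 CPM in replicate 2, a difference of 3.001 on the log2 scale between samples of the same group. Its log2 fold change over both was -0.30 (SE 0.70, adjusted p = 0.866 by edgeR), -2.47 in replicate 1 and 0.53 in replicate 2. The LY500307 samples stood on either side of the Vehicle samples.

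Several of the most abundant mRNAs stayed close to the Vehicle level. RPS6, the substrate of S6 kinase, had 964 and 972 CPM with vehicle and 1032 and 872 CPM with LY500307 (log2 fold change -0.02, SE 0.12). RPS3, which lines the mRNA entry channel, had 879.9 and 917 CPM against 996 and 804 CPM (0.00, SE 0.13). RPS4X, an X-linked small-subunit gene, had 926 and 962 CPM against 1045 and 933 CPM (0.07, SE 0.11). The groups overlapped in each, and LY500307 replicate 1 was the highest sample. RPL8 had 1070.2 and 1048 CPM against 1154 and 1066 CPM (0.07, SE 0.11), again highest in LY500307 replicate 1. The sign of the RPS6, RPS3 and RPL8 values turned with the scaling or a correction for GC content.

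Levels between genes were compared as mean CPM per kilobase of coding sequence over the 4 samples. RPS24 had the highest level at 2838, followed by RPL11 at 1518, RPL37A at 1471, RPL8 at 1401 and RPS6 at 1279.9. RPL37A, a zinc-binding protein of the large subunit, had 368 and 342 CPM in the Vehicle samples and 370.3 and 561 CPM in the LY500307 samples (log2 fold change 0.39, adjusted p = 0.432 by edgeR). Among genes tested, the lowest levels were those of RPS27 at 2.10, RPL7 at 2.91, RPS10 at 3.07 and RPS26 at 8.63. Genes whose proteins enter the ribosome mostly in equal number were thus counted at levels up to 1353 times apart. RPS27 had 0.367 and 0.563 CPM against 0.375 and 0.835 CPM, RPL7 2.50 and 2.46 against 2.36 and 1.36 CPM, RPS10 1.87 and 1.76 against 1.58 and 0.897 CPM, and RPS26 2.97 and 2.78 against 3.26 and 3.001 CPM. With so few reads, log2 fold changes of 0.37, -0.41, -0.54 and 0.12 had standard errors of 0.60, 0.34, 0.38 and 0.25.

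How often a stretch of 50 coding bases occurs elsewhere was then read from the sequence. Untranslated ends were left out and only exact matches were counted, so the result does not say whether a read could be placed. Every 50-base window of each coding sequence was searched in GRCh37, and the share of windows found nowhere else ranged from 0% in 8 genes (RPL21, RPL36A, RPL39, RPL41, RPS10, RPS26, RPS27 and RPS28) to 100% in RPL38, with a median of 50.1%. The level per coding kilobase followed this share across the 75 genes (Pearson r 0.75, Spearman rho 0.79 on log2 levels; genes of the same libraries, not independent). The 39 genes with a share of at least 50% had a median level of 718 and a lowest level of 239, and the 36 tested genes under 50% had a median of 186. Among the 7 tested genes with a share of 0%, the highest level was 177. The correlation of this share with the replicate 2 minus replicate 1 difference was -0.20 (Pearson) and -0.10 (Spearman), and with the size of that difference -0.29 and -0.17. With the log2 fold change in LY500307 replicate 1 it was 0.25 and 0.38.

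**Figure D4:**
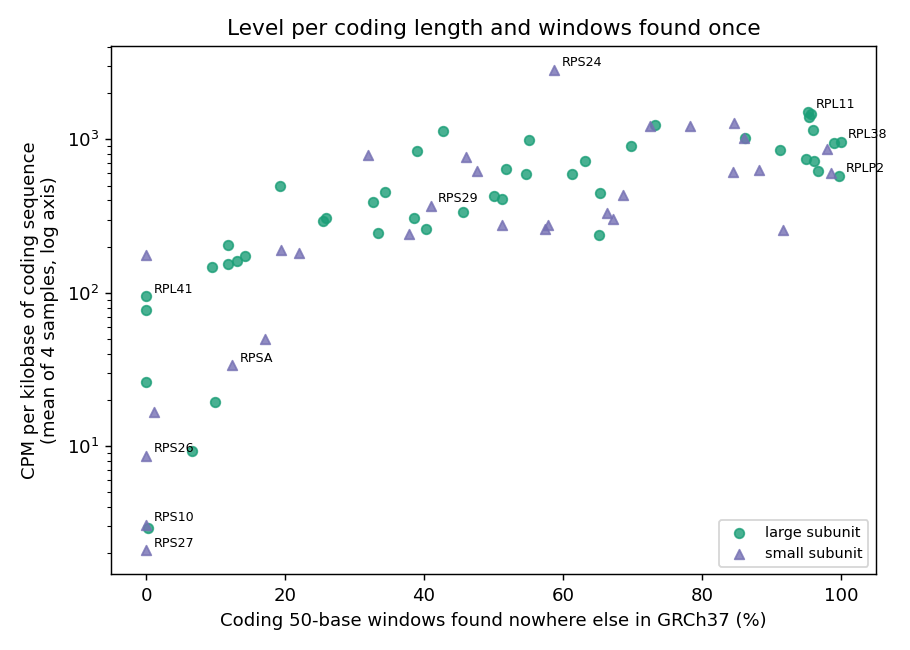
Mean CPM per kilobase of coding sequence over 4 samples (log axis) against the share of 50-base coding windows found nowhere else in GRCh37 (%), for the 75 tested genes by subunit. Genes at 0% lie at or below 177 and those with at least 50% lie at or above 239.

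Over both LY500307 samples together, the higher levels were seen in both kinds of gene. Of the 39 genes with at least 50% of windows found nowhere else, 14 were higher at p below 0.05 and 8 met the DEG criteria, with a median log2 fold change of 0.29. Of the 36 others tested, 12 were higher and 5 met the criteria, with a median of 0.27. Over all genes, 6.09% were higher and 2.76% met the DEG criteria upward. In LY500307 replicate 1 the median was 0.113 in the first set and 0.068 in the second, with 35 and 20 genes positive. In replicate 2 the medians were 0.438 and 0.446. The SD of the difference between LY500307 samples was 0.49 in the first set and 0.96 in the second, and the differences of RPS29, RPSA, RPL39 and RPS3A, the largest, were all in the second. RPLP2 (99.7% of windows found nowhere else), RPS21 (98.5%) and RPS19 (97.9%) had few windows shared with other places, and so did RPL11 (95.3%).

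RPSA was the gene with the highest log2 fold change, and its copy RPSAP58, named after its values were seen, was counted as a row of its own. RPSA (chr3:39448211-39454033), which is both a small-subunit protein and the laminin receptor precursor, had 404 and 297 reads with vehicle, 371 in LY500307 replicate 1 and 2758 in replicate 2, or 13.5, 10.5, 10.7 and 85.3 CPM. Its log2 fold change was 2.00 (SE 0.75, adjusted p = 0.422), and -0.16 without LY500307 replicate 2. LY500307 replicate 2 alone was high, and replicate 1 lay within the Vehicle samples. RPSAP58 had 4018 and 3731 reads in the Vehicle samples, 4640 in LY500307 replicate 1 and 2728 in replicate 2, the lowest of the 4. The sum of both rows was 4422, 4028, 5011 and 5486 reads, or 143 ± 4.23 and 159 ± 22.7 CPM without TMM scaling (SD, n = 2 each; exact permutation p = 0.667, two-sided). With reads of pseudogene rows added to their parent genes, the log2 fold change of RPSA was 0.12 (adjusted p = 0.648 by edgeR).

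**Figure D5:**
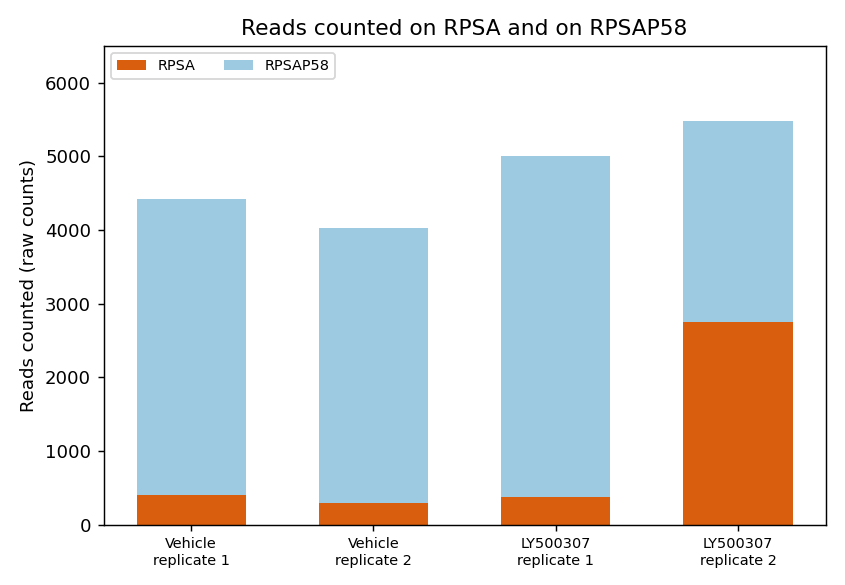
Reads counted on RPSA (orange) and on RPSAP58 (light blue), stacked, in each of the 4 samples. In both Vehicle samples and LY500307 replicate 1 RPSA held 297 to 404 reads of the stack, and in LY500307 replicate 2 it held 2758 of 5486.

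The copy of the RPSA coding sequence on chromosome 19 (chr19:24009964-24010851, GRCh37) differed from RPSA at 4 of 888 bases, an identity of 99.5%. Of 839 windows of 50 bases, 639 were identical in both and all 839 had at most 2 differences. In RPSA 235 of these windows are split by an intron, whereas in the copy they are not, and 212 of the split windows were identical. The 60 bases from coding position 319 to 378 are shown because they hold 1 of the 4 differences, given in capitals, so that a read from this stretch can be told apart by a single base.
RPSA, chr3:39452311-39452370 (+): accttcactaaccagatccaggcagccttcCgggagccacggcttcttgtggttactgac
RPSAP58, chr19:24010282-24010341 (+): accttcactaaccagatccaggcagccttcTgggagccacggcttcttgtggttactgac
How reads were divided between RPSA and this copy in each sample was not tested.

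Medians were also taken over genes that share a feature. The 41 tested genes with the pyrimidine start had a median log2 fold change of 0.34 (0.09 in LY500307 replicate 1, 0.59 in replicate 2), and the 20 with a promoter window but without that start had 0.25 (0.11 and 0.39). Among the latter, RPL3, RPL4, RPL10A, RPL11, RPL19, RPL32, RPS7 and RPS28 have such a start within 5 bases of the annotated one. The difference between the sets was not tested. The 77 genes of the family are spread over 21 chromosomes, with 12 on chromosome 19. Small nucleolar RNA genes lie within 29 of the 77, and the 28 of these tested had a median log2 fold change of 0.28, against 0.27 for the 47 others tested; this split was chosen after the data were seen. Across the 75 genes, the replicate 2 minus replicate 1 difference had a Pearson r of 0.00 and a Spearman rho of 0.05 with coding GC content, and of -0.06 and -0.09 with coding length. The log2 fold change in LY500307 replicate 1 had a Pearson r of 0.18 and a Spearman rho of 0.41 with coding GC content.

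Cytosolic ribosomal genes outside the symbol rule were examined as well. FAU, a small-subunit protein made as a fusion with a ubiquitin-like protein, had 99.0 and 78.3 CPM in the Vehicle samples and 119.7 and 129.9 CPM in the LY500307 samples (log2 fold change 0.49, SE 0.13, adjusted p = 0.422). GNB2L1, the scaffold protein RACK1 of the small subunit, had 877 and 853 CPM against 989 and 1142 CPM (0.30, adjusted p = 0.428). Both were higher at p below 0.05 with groups that did not overlap, and replicate 1 held a log2 fold change of 0.43 for FAU and 0.20 for GNB2L1.

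Among 8 paralogs of ribosomal proteins, 1 was higher and 0 were lower, and the median log2 fold change was -0.19. RPS27L, a p53 target and close relative of RPS27, had 97.1 and 93.1 CPM in the Vehicle samples and 126 and 161 CPM in the LY500307 samples (0.60, SE 0.13, adjusted p = 0.422). RPL36AL, an expressed retrogene, had a log2 fold change of 0.15 in LY500307 replicate 1 and -0.55 in replicate 2. The others had log2 fold changes of 0.09 (RPL22L1), -0.11 (RPL7L1), -0.22 (RPL26L1), -0.23 (RPL39L), -0.33 (RPL10L) and -0.98 (RPL3L), the last pair with at most 34 reads in a sample.

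Other genes of translation had medians near 0. Of 24 tested elongation factors and other mRNAs known for a pyrimidine start, 1 was higher (EIF3F, log2 fold change 0.42) and 1 lower (NAP1L1, a histone chaperone, -0.36), with a median of -0.05. Of 28 initiation factors, EIF6 (0.58), which keeps the subunits apart, and EIF3I (0.38) were higher and EIF3J (-0.29) was lower, with a median of 0.00. Of 16 regulators of this class of mRNAs, RPTOR, the mTOR complex subunit, was higher (0.35) and TIAL1, an RNA-binding protein, was lower (-0.25), with a median of 0.03. These shares lie near the 6.09% and 5.5% of all genes.

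Mitochondrial ribosomal proteins, which build the ribosome of that organelle, were compared as the most similar family. At p below 0.05, 8 of 75 tested were higher, against 6.09% of all genes. MRPS31 alone (log2 fold change -0.40) was lower, against 5.5% of all genes. The DEG criteria were met upward by 2, MRPL14 (0.63) and MRPL41 (0.61), against 2.76% of all genes. The median log2 fold change of the 75 was 0.10, with 0.07 in LY500307 replicate 1 and 0.10 in replicate 2. The SD over genes of the difference between the LY500307 samples was 0.26, against 0.76 in the cytosolic family. No test of the difference between the families was made, since genes are not replicates.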

How the data were processed

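Per the labels, total RNA of 4 SKOV3 samples was read as 50-base single ends. The labels name a total RNA kit and the study's methods a stranded mRNA kit; the strand setting of the counting is not given in the sources used here, so overlapping antisense genes and near-identical copies are uncertain. The authors aligned reads to hg19 (TopHat2 2.0.8b in the submitters' processing notes), counted them per gene symbol with HTSeq and deposited raw counts without normalization; tally lines (no feature, ambiguous, not unique) were left out of library sizes. Library totals were 28841701 to 34943882 reads.

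All genes were fitted in R 4.3.3 with edgeR 4.0.16 (TMM, filterByExpr, quasi-likelihood test, Benjamini-Hochberg adjustment), with DESeq2 1.42.0 as an alternative. CPM uses TMM-scaled library sizes. Standard errors are the log2 fold change divided by the square root of F. Log2 differences between single samples use a prior count of 2. Length and GC corrections subtract a loess curve (span 0.3); 85.0% of symbols were matched to the annotation (GENCODE, GRCh37), 2169 by an older symbol. Tested on simulated counts of 14473 genes, 92% of 200 genes with a log2 fold change of 1 met the DEG criteria, as did 260 unchanged genes; with no change 289 did, and 0 passed adjustment.

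Members, lists and tests were chosen with earlier results of these data known. Named members are the 10 of smallest p, the 5 highest and 5 lowest log2 fold changes, the 5 highest and 5 lowest levels, 14 genes of known roles and the 5 with the largest difference between LY500307 samples. Other genes named singly were chosen after their values were seen. Sequences came from RefSeq (GRCh38.p14) and GRCh37. Alternatives were other normalizations and filters, a replicate block, corrections, and leaving out each sample. The correlation of deviations between Vehicle and LY500307 replicate 1 was -0.07 over all genes, -0.38 over genes of at least 100 CPM and -0.28 over members, so that numbers were not taken as pairs. Protein sequences were not used here, and some genes under the naming rule are not reported here, though counts and medians over the family include them.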

Additional observations from a re-analysis of the deposited data

How the results depend on the processing

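With all samples in the fit, the 26 genes higher and 13 meeting the DEG criteria became 9 and 7 with the length correction, which also made 1 gene lower; the cause was not tested. With the replicate block 2 genes were lower, with the replicate block and length correction 13 were higher and 5 lower, with the replicate block and GC correction 2 were lower, and with all genes of at least 1 count 2 were lower. The replicate block gave 0 genes with an adjusted p below 0.05. With pseudogene rows added to their parent genes, 11 genes met the DEG criteria upward, against 397 of all 14459 genes. RPS15A and RPSA were no longer among them. The crossed block, chosen after seeing the data because the numbers did not pair, gave 4 lower and 15 with an adjusted p below 0.05, against 381 of all 14473 genes. Counting only the 39 genes with at least 50% of windows found nowhere else left 14 higher and 8 meeting the DEG criteria. The difference in subunit ratio over these genes was 0.0017. The difference in subunit ratio was -0.066 without RPS24 and -0.019 on the mean log2 scale.

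Leaving out each sample in turn gave 8 to 49 genes higher, 0 to 14 lower, 2 to 38 meeting the DEG criteria and 0 to 62 with an adjusted p below 0.05. Without LY500307 replicate 1, 5002 of all 14906 genes passed adjustment and 1067 met the DEG criteria upward and 920 downward; without LY500307 replicate 2, 590 of 14878 passed, with 148 upward and 204 downward by the criteria. The lone sample was assumed to vary like the other group. The median log2 fold change of the family was lowest, 0.103, when LY500307 replicate 2 was left out and highest, 0.438, when LY500307 replicate 1 was.

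Among 35 genes followed singly, 15 changed sign in some setting, of which RPSA alone had met p below 0.05. Leaving out each sample in turn, log2 fold changes ran from -0.42 to 1.53 (RPS3A), -0.23 to 2.05 (RPL39), -0.16 to 2.83 (RPSA), -0.15 to 0.094 (RPS6), -0.61 to 0.11 (RPL11), -0.75 to 0.040 (RPS24), -0.30 to 0.84 (RPS27), -0.18 to 0.0057 (RPL5), -0.16 to 0.15 (RPS3), -0.033 to 0.47 (RPL22), -0.63 to 0.78 (RPL41), -0.014 to 0.15 (RPS4X) and -2.47 to 0.53 (RPS29). The length correction gave -0.041 (RPL8), -0.110 (RPS3), -0.010 (RPLP0) and -0.089 (RPL41), and with the replicate block as well -0.045, -0.124, -0.013 and -0.085. The GC correction gave 0.017 (RPS6), -0.053 (RPL8) and -0.043 (RPS3), and with the replicate block as well 0.013, -0.058 and -0.051. RPS6 was 0.012 with library totals alone, and RPS3 was -0.0047 with either block. The smallest counts, those of RPS27, RPL7, RPS10 and RPS26, limit what their rows can show.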
